A study of Mus musculus with 16 samples.

Results

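The genes described here are 10 components of the junctions that hold epithelial cells of the mouse cochlea together and seal them. They were chosen by symbol, not by a threshold on a measured value, from the 36536 genes counted in this series. The choice was made with earlier results of these data known. In freshly sorted supporting cells the paper had already listed Cdh3 and Cdh4 as changing with age. It also listed Cdh1, Cldn6 and Cldn9 as enriched in those cells. Shares of the 10 that were called are therefore descriptions, not tests of a set chosen blind. They comprise 4 classical cadherins (Cdh1, Cdh2, Cdh3 and Cdh4), 4 claudins (Cldn6, Cldn9, Cldn11 and Cldn14) and 2 genes of the MARVEL family (Ocln and Marveld2). All 10 were found in every file, and all 10 passed the filter on low counts in each of the 10 comparisons. The question asked of them was how their transcripts changed in supporting cells between the day of birth and postnatal day 5, and how they responded when Notch signaling was blocked.

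Classical cadherins are calcium-dependent adhesion molecules of the adherens junction. Their outer domains bind cadherins on the neighboring cell and their tails bind catenins, which link the junction to actin. Claudins are small membrane proteins that form the strands of the tight junction and set which ions can pass between cells. Occludin and tricellulin, the products of Ocln and Marveld2, are MARVEL proteins of the tight junction, and tricellulin is concentrated where 3 cells meet. In the cochlea the tight junctions between hair cells and supporting cells separate the potassium-rich endolymph from the perilymph, and mutations in CLDN14 and MARVELD2 cause deafness in people.

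All animals carried the Lfng-EGFP transgene, strain B6;FVB-Tg(Lfng-EGFP)HM340Gsat/Mmucd, a bacterial artificial chromosome in which regulatory sequence of Lfng drives green fluorescent protein (GFP). Cochleas were explanted at postnatal day 0 (P0) or 5 (P5) and cultured for 24 hours with EGF and FGF2 in the medium and either DAPT at 10 µM, which inhibits gamma-secretase and so the cleavage of Notch receptors, or 0.04% DMSO, its vehicle. Cells were then sorted into GFP+ cells, which the study describes as supporting cells, and GFP- cells, which are the other cochlear cells, and cells of low GFP fluorescence were not collected. Age, treatment and fraction gave 8 groups of 2 libraries (P0 DMSO, P0 DAPT, P5 DMSO and P5 DAPT, each as GFP+ and GFP-), 16 libraries in all. The transgene labels several supporting cell types at once but not inner pillar cells, so that the GFP+ fraction is a mixture. The dissection differed with age. At P0 Reissner's membrane, the stria vascularis and the lateral wall were separated off, whereas at P5 they were removed only in part. Papain treatment was also shorter for P0 explants. Age and the tissue left in the explant therefore cannot be told apart. The sources do not say whether the 2 libraries of a group came from separate animals or litters, and p-values therefore measure only the spread between these libraries.

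Gene counts ranged from 13755356 to 23637236 in the GFP+ libraries and from 34869184 to 45465324 in the GFP- libraries, and records outside annotated genes made up 50.05 to 62.02% and 6.64 to 13.73% respectively. The summed level of 10 supporting cell markers was 1839 to 4439 CPM (read counts scaled to the normalised size of each library) in GFP+ libraries and 580 to 745 CPM in GFP- libraries, and that of 7 mesenchyme markers was 64.8 to 1379 CPM in GFP+ and 8184 to 13720 CPM in GFP- libraries. One library went against its label. Over 10628 genes, the library labelled P0 DMSO GFP- replicate 2 had a Pearson r of 0.974 to 0.983 with the P5 GFP- libraries, but 0.904 to 0.924 with the other P0 GFP- libraries and 0.904 with its own replicate. Counts of calls that rest on it are also given without it. The numbers of the deposited libraries fell into 3 stretches, one of which held only the P0 DMSO GFP+ pair. No label calls these stretches batches. Any difference that went with that stretch cannot be told apart from P0 DMSO GFP+ in the comparisons that use this group. P5 against P0 in DAPT and DAPT against DMSO at P5 lay within a stretch, which does not show that their libraries shared a batch. The P0 DMSO GFP+ pair also detected 30639 to 31345 genes, against 25651 to 27156 in the other GFP+ libraries. In bulk samples such as these, fewer cells of a type and less RNA per cell cannot be told apart.

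Per length of transcript, E-cadherin and a pair of claudins dominated the set in GFP+ cells. In P0 DMSO GFP+ cells the highest level, in CPM per kilobase of exonic length, was that of Cdh1 at 356 ± 13.1 (SD, n = 2), followed by Cldn9 at 203.8 ± 8.17 and Cldn6 at 118 ± 20.3, and the ranges of these 3 did not overlap. The next level was 12.1 ± 4.93 for Cdh2. It overlapped with that of Marveld2 at 10.7 ± 0.0873, and Cdh3 at 9.35 ± 1.60 and Ocln at 9.17 ± 1.49 overlapped with each other. Cdh4 at 6.09 ± 0.947, Cldn14 at 2.07 ± 0.590 and Cldn11 at 0.551 ± 0.0412 were lowest. At P5 in DMSO the order of the first 3 had changed to Cldn9 at 320.2 ± 33.0, Cdh1 at 96.3 ± 9.57 and Cldn6 at 38.8 ± 3.79, again without overlap, and the lowest means were those of Cldn11 at 2.65 ± 3.15, Cdh3 at 1.29 ± 0.111 and Cdh4 at 0.935 ± 0.642, whose values overlapped. In P0 DMSO GFP- cells Cldn11 was highest at 42.2 ± 1.48 and Cldn14 lowest at 0.856 ± 0.680.

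**Figure D1:**
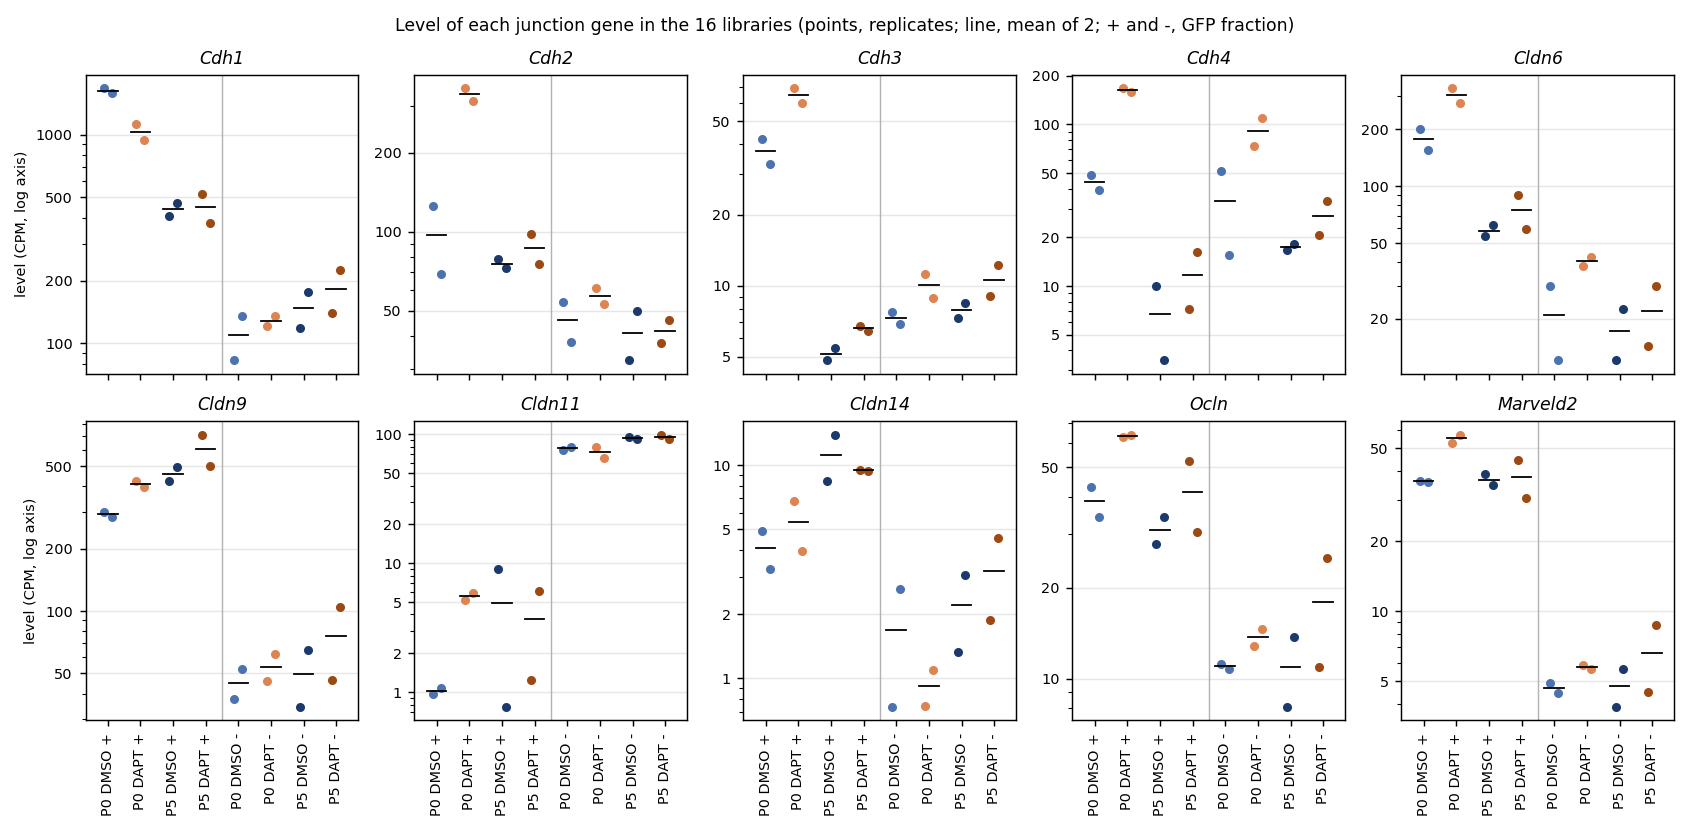
Level of the 10 junction genes in CPM (log axis) in the 16 libraries, in a panel per gene, with points for replicates and a line for the mean of each group. The 4 GFP+ groups stand left of the grey line and the 4 GFP- groups right of it. Cdh1, Cdh3, Cdh4 and Cldn6 fall from P0 to P5 in GFP+ cells, Cdh2 and Cdh4 are highest in P0 DAPT GFP+ cells, and Cldn11 is high in GFP- cells.

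A gene was called where its fold change exceeded 2 and its adjusted p was below 0.01 (edgeR quasi-likelihood test with Benjamini-Hochberg adjustment over all genes tested). Between P0 and P5 in DMSO, 4 of the 10 genes fell in GFP+ cells (Cdh1, Cdh3, Cdh4 and Cldn6) and none rose, where 1.3% of all 20844 genes tested were called lower. In DAPT the same 4 genes and Cdh2 fell, 5 of 10, where 2.74% of 18776 genes were called lower. These 2 comparisons share no library. When either P0 DAPT library was left out, none of the 5 passed in DAPT (edgeR adjusted p = 0.013 to 0.087) and each kept its direction, while the calls over all genes went from 1085 to 51 without replicate 1 and 33 without replicate 2. Markers of other cells also differed with age, with which the dissection differed too. The median log2 fold change of 7 mesenchyme markers was 2.49 in DMSO, with none called, and 2.77 in DAPT, with 2 called higher (Dcn and Postn), and the summed level ranged from 143 to 165 CPM at P0 and 233 to 1379 CPM at P5 in DMSO, and from 64.8 to 146 CPM and 340 to 1329 CPM in DAPT, none of the 7 having a group mean under 1 CPM. Of 10 supporting cell markers 2 were called lower (Prox1 and Hes5) and 1 higher (Slc1a3) in DMSO, and of 9 tested in DAPT 1 was called higher (Hey2). Their part in the change of the junction genes was not tested. DAPT at P0 raised 3 of the 10 (Cdh2, Cdh4 and Cldn11) and lowered none at these limits, where 4.2% of 20711 genes were called higher. With all 8 groups in 1 fit, which share an estimate of the spread, Cdh4 and Cldn6 no longer passed with age in DMSO (edgeR adjusted p = 0.014 and 0.034), nor Cdh1 with age in DAPT (0.014), nor Cdh4 and Cldn11 with DAPT at P0 (0.038 and 0.064). With DAPT at P5 edgeR called 0 of the 10 and 0% of 18754 genes, and DESeq2 called 58 genes. Hes5, a supporting cell marker that the paper reports as lowered by DAPT at P5, was not called by edgeR either. It measured 7.40 CPM in DMSO and 0.195 CPM in DAPT (log2 fold change -5.39, SE 1.06, edgeR adjusted p = 0.64). The lack of calls at P5 therefore does not show a lack of change. In edgeR 953 genes had an unadjusted p under 0.05. None of the 10 genes was among the 953.

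Replicates of the 2 groups did not overlap for 7 of the 10 genes between the ages in DMSO (61% of all genes tested), for 9 between the ages in DAPT (62.1%), for 9 with DAPT at P0 (68.4%) and for 2 with DAPT at P5 (34.6%). The median log2 fold change over the 10 genes was -0.38 between the ages in DMSO (-0.02 over all genes), -0.89 in DAPT (0.02), 0.70 for DAPT at P0 (-0.04) and 0.28 for DAPT at P5 (0.00). The DAPT comparison at P0 and the DMSO age comparison share the P0 DMSO GFP+ libraries, and the DAPT comparison at P0 and the DAPT age comparison share the P0 DAPT libraries.

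**Figure D2:**
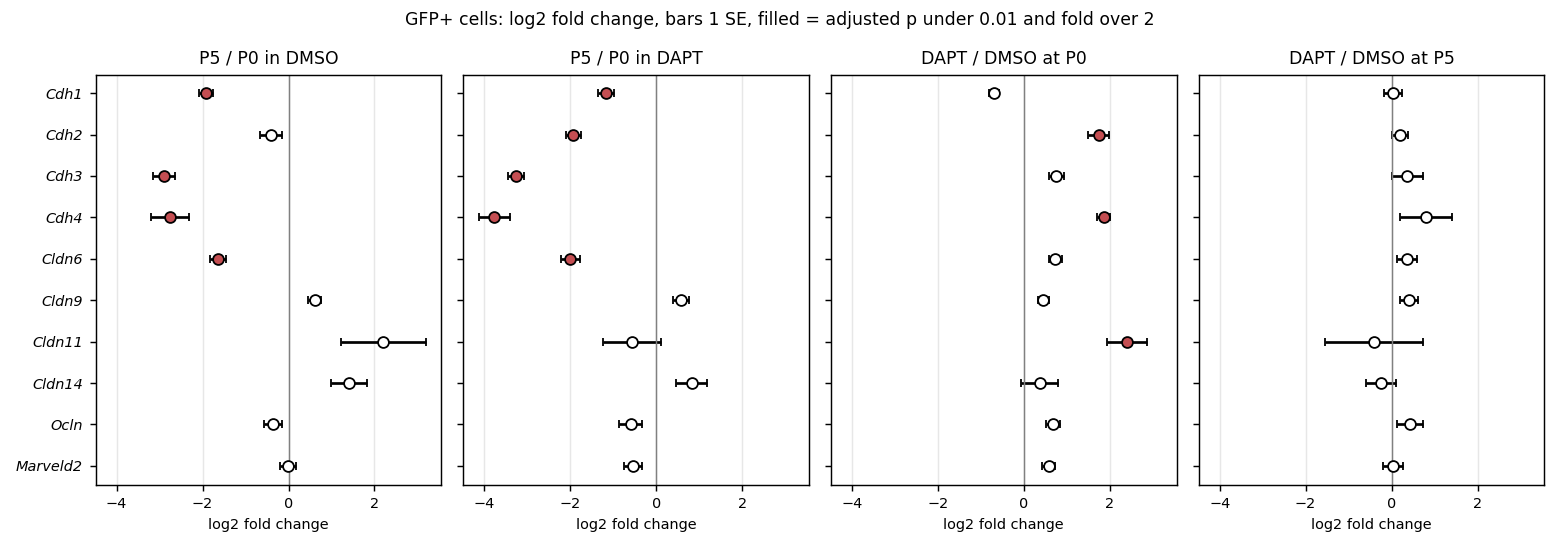
Log2 fold change of each gene in GFP+ cells, with bars of 1 SE, for P5 against P0 in DMSO and in DAPT and for DAPT against DMSO at P0 and at P5. Filled points had a fold change above 2 with an adjusted p below 0.01. The 4 or 5 filled points of the age comparisons lie below 0, the 3 filled points of DAPT at P0 lie above 0, and none is filled at P5.

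All 4 cadherins were lower at P5 than at P0 in DAPT-treated GFP+ cells, and 3 of them in DMSO. Cdh1, which encodes E-cadherin, the main cadherin of most epithelia, lies at chr8:109127251-109194146 on the plus strand (NCBIM37, as are all gene positions here). Its levels in GFP+ cells were 1671 and 1586 CPM in P0 DMSO, 1122 and 939.9 CPM in P0 DAPT, 409.6 and 471.5 CPM in P5 DMSO, and 522 and 378 CPM in P5 DAPT. Each P0 library thus stood above each P5 library, and P0 DMSO above P0 DAPT. With age Cdh1 fell by 1.93 on the log2 scale in DMSO (SE 0.16, edgeR adjusted p = 0.00053) and by 1.18 in DAPT (SE 0.18, edgeR adjusted p = 0.0086). Without P5 DAPT GFP+ replicate 2 the DAPT value was -0.97, under the fold limit. With DAPT at P0 it was the only one of the 10 with a negative log2 fold change, -0.70 (SE 0.13, edgeR adjusted p = 0.0043), a 1.62-fold difference that stayed under the fold limit. At P5 the treated and control libraries overlapped, with a log2 fold change of 0.03 (SE 0.20, edgeR adjusted p = 1.00).

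Cdh3, which encodes P-cadherin, is the neighbor of Cdh1 on chromosome 8 at chr8:109034791-109080808, 46442 bases away on the same strand. Its level in GFP+ cells was 41.9 and 32.8 CPM in P0 DMSO, 69.1 and 60.0 CPM in P0 DAPT, 4.83 and 5.46 CPM in P5 DMSO, and 6.78 and 6.45 CPM in P5 DAPT. No P5 library reached the level of a P0 library. Cdh3 fell by 2.90 on the log2 scale with age in DMSO (SE 0.26, edgeR adjusted p = 0.00068) and by 3.27 in DAPT (SE 0.19, edgeR adjusted p = 0.00035). DAPT gave a log2 fold change of 0.75 at P0 (SE 0.18, edgeR adjusted p = 0.014), which did not pass. The neighbors Cdh1 and Cdh3 thus had opposite signs with DAPT at P0, and the ratio of their levels per length was 34.8 and 42.2 in P0 DMSO, 14.2 and 13.7 with DAPT at P0, and 51.2 to 75.5 in the 4 P5 libraries.

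Cdh2, which encodes N-cadherin, the cadherin of neurons and of many non-epithelial cells, lies at chr18:16747386-16967755 on the minus strand. In GFP+ cells it measured 125 and 69.1 CPM in P0 DMSO, 352 and 316 CPM in P0 DAPT, 78.3 and 72.8 CPM in P5 DMSO, and 98.1 and 75.3 CPM in P5 DAPT. The P0 DAPT pair stood above every other library, and the remaining 3 GFP+ groups overlapped. DAPT raised Cdh2 at P0 with a log2 fold change of 1.74 (SE 0.24, edgeR adjusted p = 0.00094), and with age it fell by 1.93 in DAPT (SE 0.17, edgeR adjusted p = 0.0012). In DMSO the age difference was -0.41 (SE 0.26, edgeR adjusted p = 0.35).

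Cdh4, which encodes R-cadherin, lies at chr2:179177136-179634078 on the plus strand, with 31 exonic bases shared with the gene Gm10711. Its GFP+ levels were 48.8 and 39.1 CPM in P0 DMSO, 167.8 and 158.9 CPM in P0 DAPT, 10.0 and 3.47 CPM in P5 DMSO, and 7.17 and 16.3 CPM in P5 DAPT. Like Cdh2, it was highest in the P0 DAPT pair. DAPT raised Cdh4 at P0 by a log2 fold change of 1.86 (SE 0.16, edgeR adjusted p = 4.4e-05), and with age Cdh4 fell by 2.75 in DMSO (SE 0.44, edgeR adjusted p = 0.0074) and by 3.77 in DAPT (SE 0.36, edgeR adjusted p = 0.0017). The age difference in DMSO did not pass without P0 DMSO GFP+ replicate 1 (log2 fold change -2.57, edgeR adjusted p = 0.015). At P5 the higher library of each group, 10.0 CPM in DMSO replicate 1 and 16.3 CPM in DAPT replicate 2, was the one with the higher summed mesenchyme markers (1379 and 1329 CPM, against 233 and 340 CPM in the other 2 libraries). The part of those cells in the Cdh4 values was not tested.

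The rise of Cdh2 and Cdh4 with DAPT at P0 stood beside a rise of hair cell markers. The summed level of 10 hair cell markers was 556.9 and 374.5 CPM in P0 DMSO GFP+ libraries and 4141 and 3962 CPM in P0 DAPT GFP+ libraries, and 8 of the 10 were called higher. None of the 10 had a mean under 1 CPM in either group. Atoh1, the transcription factor that starts hair cell differentiation, rose from 6.79 ± 2.12 to 256 ± 26.4 CPM. Over the same libraries the summed supporting cell markers were 4439 and 4158 CPM in DMSO and 2440 and 2466 CPM in DAPT, with 4 of 10 called lower. In P5 DAPT GFP+ libraries the hair cell markers summed to 783 and 751 CPM, against 552 and 576 CPM in P5 DMSO. The summed level of 5 neuron markers was 33.0 and 11.9 CPM in P0 DMSO and 114 and 128 CPM in P0 DAPT, with 2 of 4 tested called higher and 1 under 1 CPM in each group. Hair cell markers also fell with age in DAPT (7 of 10 called lower), the comparison in which Cdh2 fell. The part of these markers' cells in the cadherin values was not tested.

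The make-up of the cadherin set followed from these values. Of the summed level per length of the 4 cadherins, Cdh1 made up 91.8 and 94.0% in P0 DMSO GFP+ libraries and 74.4 and 72.9% in P0 DAPT, and 86.2 to 90.5% in the 4 P5 libraries. Cdh2 made up 3.9 and 2.3% in P0 DMSO, 13.3 and 13.9% with DAPT at P0, and 7.9 to 9.7% at P5. Cdh4 made up 1.7 and 1.5%, then 7.1 and 7.8%, then 0.4 to 2.4%. These shares are taken within a library and do not depend on its scaling. E-cadherin was the largest part in each GFP+ library, and the P0 DAPT pair had the smallest E-cadherin share.

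**Figure D3:**
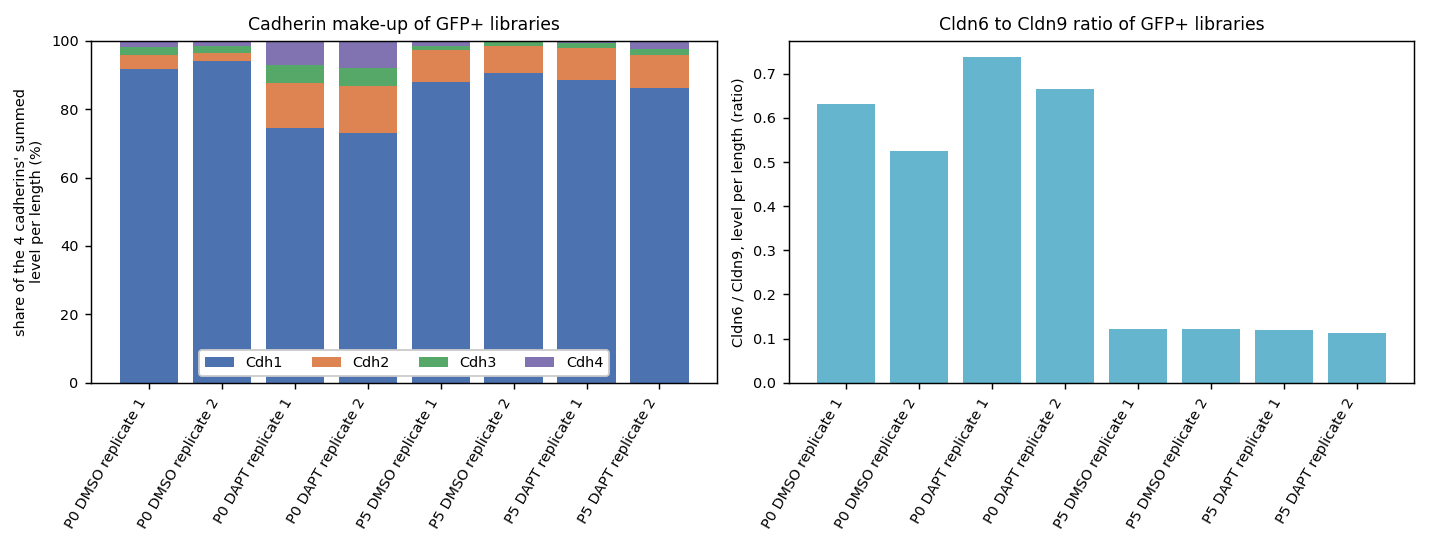
Left, the share (%) of the summed level per length of the 4 cadherins that each takes in the 8 GFP+ libraries. Right, the ratio of the levels per length of Cldn6 and Cldn9 in the same libraries. The P0 DAPT pair has the lowest Cdh1 share, 72.9 and 74.4%, and the Cldn6 to Cldn9 ratio is 0.524 to 0.738 in P0 libraries and 0.114 to 0.122 in P5 libraries.

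In GFP+ cells the claudins comprised one that fell with age, one that was high throughout and 2 of low level. Cldn6, a claudin of embryonic epithelia, and Cldn9, a claudin of the organ of Corti whose loss causes deafness in mice, lie tail to tail on chromosome 17 with 138 bases between them (Cldn6 at chr17:23816332-23819413 on the plus strand, Cldn9 at chr17:23819552-23820985 on the minus strand). Cldn9 is a single exon. Their coding sequences share 76.0% of aligned bases and no stretch of 50 bases, and the longest shared run of their transcripts is 37 bases. The kit did not mark strand, and no exonic overlap between the 2 was annotated.

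Cldn6 measured 199.5 and 156 CPM in P0 DMSO GFP+ libraries, 329 and 276 CPM in P0 DAPT, 54.5 and 62.5 CPM in P5 DMSO, and 89.8 and 59.8 CPM in P5 DAPT. It fell with age by 1.65 on the log2 scale in DMSO (SE 0.18, edgeR adjusted p = 0.0017) and by 2.00 in DAPT (SE 0.22, edgeR adjusted p = 0.0027). DAPT gave a log2 fold change of 0.73 at P0 (SE 0.16, edgeR adjusted p = 0.0098), a 1.66-fold difference under the fold limit. Cldn9 measured 300.6 and 284 CPM in P0 DMSO, 425 and 395 CPM in P0 DAPT, 426 and 492.5 CPM in P5 DMSO, and 709 and 500.5 CPM in P5 DAPT. Its log2 fold change with age was 0.61 in DMSO (SE 0.16, edgeR adjusted p = 0.041) and 0.58 in DAPT (SE 0.18, edgeR adjusted p = 0.076), neither of which passed, although the ages did not overlap. As a result the ratio of Cldn6 to Cldn9 per length was 0.632 and 0.524 at P0 with DMSO, 0.738 and 0.666 at P0 with DAPT, 0.122 and 0.121 at P5 with DMSO, and 0.120 and 0.114 at P5 with DAPT. The P0 and P5 ratios did not overlap, in either treatment.

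Cldn11, the claudin of stria vascularis basal cells and of myelin (chr3:31048868-31063246, plus strand), was a gene of the GFP- fraction, where it measured 66.0 to 99.6 CPM in the 8 libraries. In GFP+ cells it measured 0.962 and 1.07 CPM in P0 DMSO, 5.18 and 5.89 CPM in P0 DAPT, 8.99 and 0.771 CPM in P5 DMSO, and 1.25 and 6.08 CPM in P5 DAPT. DAPT raised it at P0 with a log2 fold change of 2.41 (SE 0.47, edgeR adjusted p = 0.0065), from 21 counts in each P0 DMSO library to 97 and 114 counts, and this did not pass when any 1 of the 4 libraries was left out (edgeR adjusted p = 0.010 to 0.022). Summed mesenchyme markers were 143 and 165 CPM in P0 DMSO and 64.8 and 146 CPM in P0 DAPT. With age in DMSO the log2 fold change of Cldn11 was 2.21 (SE 0.98, edgeR adjusted p = 0.18), and without P5 DMSO GFP+ replicate 2 it was 3.11 and passed (edgeR adjusted p = 0.00079). At P5 the 2 libraries with Cldn11 at 8.99 and 6.08 CPM were those with mesenchyme markers at 1379 and 1329 CPM, and the part of those cells in the values was not tested.

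Cldn14, a claudin of the sensory epithelium (chr16:93919276-94009082, minus strand), measured 4.90 and 3.26 CPM in P0 DMSO GFP+ libraries, 6.83 and 3.98 CPM in P0 DAPT, 8.44 and 13.9 CPM in P5 DMSO, and 9.51 and 9.44 CPM in P5 DAPT. The P5 libraries stood above the P0 libraries of their treatment. The log2 fold change with age was 1.41 in DMSO (SE 0.42, edgeR adjusted p = 0.065) and 0.83 in DAPT (SE 0.36, edgeR adjusted p = 0.17), and neither passed. Without P5 DMSO GFP+ replicate 1 the DMSO value was 1.77 and passed (edgeR adjusted p = 0.0076).

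Neither occludin nor tricellulin transcripts passed the test in any GFP+ comparison of age or treatment. Ocln and Marveld2 both lie on the minus strand of chromosome 13, with 43238 bases between them (Ocln at chr13:101266462-101322673, Marveld2 at chr13:101365912-101386926). Ocln measured 43.1 and 34.3 CPM in P0 DMSO GFP+ libraries, 62.7 and 64.2 CPM in P0 DAPT, 27.9 and 34.2 CPM in P5 DMSO, and 52.5 and 30.5 CPM in P5 DAPT. Marveld2 measured 36.4 and 35.9 CPM, 53.0 and 57.3 CPM, 38.7 and 34.8 CPM, and 44.5 and 30.8 CPM in the same order. For both, the P0 DAPT pair stood above every other GFP+ library. The log2 fold change with DAPT at P0 was 0.68 for Ocln (SE 0.17, edgeR adjusted p = 0.017) and 0.57 for Marveld2 (SE 0.15, edgeR adjusted p = 0.023), and neither passed. With age in DMSO the log2 fold change was -0.36 for Ocln (SE 0.22, edgeR adjusted p = 0.31) and -0.02 for Marveld2 (SE 0.18, edgeR adjusted p = 0.97). In DAPT it was -0.60 for Ocln (SE 0.26, edgeR adjusted p = 0.17) and -0.54 for Marveld2 (SE 0.21, edgeR adjusted p = 0.14). Without P5 DAPT GFP+ replicate 1 Ocln was -1.06 and passed (edgeR adjusted p = 0.0021).

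Whether the response to DAPT differed between the ages was tested as an interaction in the 4 GFP+ groups. None of the 10 genes passed, where 1.1% of 22199 genes were called. Of the 10, 2 had an unadjusted p under 0.05. The largest of these was Cdh2, whose log2 response at P5 minus that at P0 was -1.55 (SE 0.35, edgeR adjusted p = 0.044), and DESeq2 called it (log2 difference -1.52, adjusted p = 0.00081). Cdh1 had a difference of 0.73 (SE 0.24, edgeR adjusted p = 0.13). At P5 the single genes' log2 fold changes with DAPT ran from -0.41 for Cldn11 (SE 1.14) to 0.80 for Cdh4 (SE 0.61), and Cdh2 had 0.20 (SE 0.19).

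Most of the 10 genes were higher in the GFP+ fraction. Of 10 hair cell markers, 3 were also called higher in it at P0 (median log2 fold change 2.66) and 6 at P5 (3.46), and none lower. Of 10 supporting cell markers, 8 were called higher at P0 (3.81) and 7 at P5 (3.30), and 1 lower at each age. The part of hair cells in the values of the junction genes was not tested. At P0 in DMSO, 6 were higher in GFP+ than in GFP- cells (Cdh1, Cdh3, Cldn6, Cldn9, Ocln and Marveld2), where 25.5% of 21779 genes tested were called higher, and Cldn11 was lower, where 15.5% were called lower. At P5, 6 were higher (Cdh1, Cldn6, Cldn9, Cldn14, Ocln and Marveld2), where 18.4% of 19008 genes were called higher. At P0 Cdh1 measured 83.0 and 136 CPM in the GFP- libraries, which gave a log2 fold change of 4.01 (SE 0.36, edgeR adjusted p = 0.00096), and at P5, with 119 and 176 CPM, it was 1.72 (SE 0.25, edgeR adjusted p = 0.0030). Marveld2, at 4.93 and 4.44 CPM in P0 and 3.90 and 5.67 CPM in P5 GFP- cells, differed by 3.06 (SE 0.25, edgeR adjusted p = 0.00078) and 3.08 (SE 0.28, edgeR adjusted p = 0.00094). Cldn9 differed by 2.81 at P0 (SE 0.24, edgeR adjusted p = 0.00084) and 3.35 at P5 (SE 0.34, edgeR adjusted p = 0.0012), and Cldn6 by 3.19 (SE 0.46, edgeR adjusted p = 0.0030) and 1.90 (SE 0.31, edgeR adjusted p = 0.0041).

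Ocln differed between the fractions by 1.93 on the log2 scale at P0 (SE 0.24, edgeR adjusted p = 0.0022) and by 1.65 at P5 (SE 0.32, edgeR adjusted p = 0.0065). Cldn11 was lower in GFP+ cells by a log2 fold change of -6.15 at P0 (SE 0.24, edgeR adjusted p = 0.00034). At P5 it was -4.14 (SE 0.92, edgeR adjusted p = 0.011), just outside the limit, while Cldn14 at 2.49 was just inside it (SE 0.54, edgeR adjusted p = 0.0099). Cdh3 was 2.47 higher at P0 (SE 0.26, edgeR adjusted p = 0.0014) and -0.48 at P5 (SE 0.35, edgeR adjusted p = 0.28), where the GFP+ libraries at 4.83 and 5.46 CPM stood below the GFP- libraries at 7.33 and 8.46 CPM. Cdh2 gave 1.20 at P0 (SE 0.34, edgeR adjusted p = 0.024) and 1.02 at P5 (SE 0.24, edgeR adjusted p = 0.013), and passed at neither age.

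The fraction comparisons rest on small numbers of libraries and on the library that went against its label. Genes detected also split by fraction, at 25651 to 31345 in GFP+ and 21741 to 23321 in GFP- libraries. A difference of library preparation between the fractions cannot be told apart from one of cell type. Without P0 DMSO GFP- replicate 1, the library that went against its label is the only P0 DMSO GFP- library left, and calls at P0 then rest on it. Without P0 DMSO GFP- replicate 2, 8 of the 10 were called at P0, Cldn14 being added (log2 fold change 2.53, edgeR adjusted p = 0.0075), and Cdh4 moved from 0.50 to -0.16 on the log2 scale. Without either P0 DMSO GFP+ library, edgeR called 0 of the 10 and 0 of all genes, each of the 7 keeping its direction. At P5, Cldn14 and Ocln no longer passed without either GFP- library (edgeR adjusted p = 0.011 to 0.045), nor Cldn6 without GFP- replicate 1 (0.014). Cldn11 passed when either GFP+ library was left out (log2 fold change -6.82 without replicate 1 and -3.26 without replicate 2), and Cdh4 passed without GFP+ replicate 1 (-2.22) and Cdh2 without GFP+ replicate 2 (1.06). Another scaling, DESeq2 size factors in place of TMM, moved the median log2 fold change of all genes from 0.18 to 0.31 at P0 and from -0.02 to 0.09 at P5, and none of the 10 changed sign with it. The number called at P5 went from 6 to 8 with it, Cdh2 (log2 fold change 1.13, edgeR adjusted p = 0.0084) and Cldn11 (-4.04, edgeR adjusted p = 0.0069) being added.

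**Figure D4:**
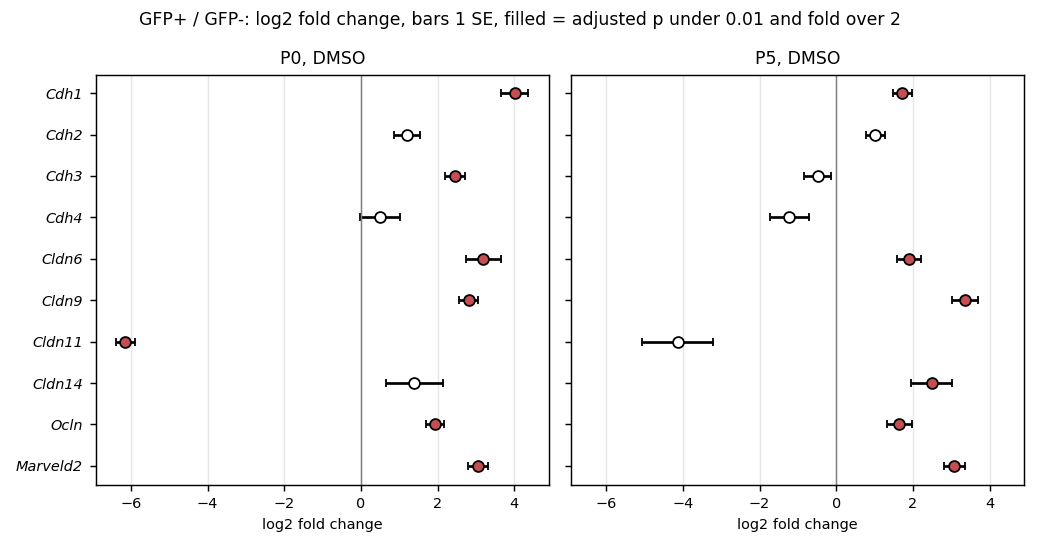
Log2 fold change of each gene in GFP+ against GFP- cells of DMSO-treated cochleas at P0 and P5, with bars of 1 SE and filled points for a fold change above 2 with an adjusted p below 0.01. At P0, 6 filled points lie above 0 and Cldn11, at -6.15, below it. At P5, 6 lie above 0, with Cldn11 at -4.14 and not filled.

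In the GFP- fraction no gene of the 10 passed, and edgeR called 0% of all genes in each comparison. For P5 against P0 in DMSO, 135 of 17423 genes had an unadjusted p under 0.05 and DESeq2 called 1. For DAPT at P0 these were 614 of 17357 genes and 27, and for DAPT at P5 342 of 17286 genes and 8. None of the 10 had an unadjusted p under 0.05 in any of these 3 comparisons. The median log2 fold change over the 10 genes was 0.02 with age (-0.03 over all genes). With DAPT it was 0.275 at P0 (0.005 over all genes), with 8 of the 10 positive. With DAPT at P5 it was 0.458 (0.009), with 10 of 10 positive, so that an upward median with DAPT was not particular to GFP+ cells. The age and P0 values include the library that went against its label. Cdh4 showed the widest spread, with 51.3 and 15.6 CPM in P0 DMSO, 73.6 and 110 CPM in P0 DAPT, 16.7 and 18.1 CPM in P5 DMSO and 20.6 and 33.5 CPM in P5 DAPT. Its 15.6 CPM came from the library labelled P0 DMSO GFP- replicate 2. Without that library, Cdh4 was lower at P5 than at P0 by a log2 fold change of -1.60 (edgeR adjusted p = 0.0022), against -0.99 with it (SE 0.55, edgeR adjusted p = 1), and 492 genes were called. For DAPT at P0 Cdh4 gave 1.44 (SE 0.63, edgeR adjusted p = 1.00) with both control libraries. Without replicate 2, the library that went against its label, it gave 0.83 (edgeR adjusted p = 0.66), and edgeR called 0 of the 10 and 0 of all genes. Without replicate 1, which left that library as the sole control, Cdh4 gave 2.51 (edgeR adjusted p = 0.0087) and Cldn6 gave 1.68 (edgeR adjusted p = 0.0050), and 549 genes were called.

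Promoter sequence is shown for the 2 genes called with age or DAPT in GFP+ cells that were matched in the promoter table used here, Cldn6 and Cldn11, because DAPT acts on Notch, whose nuclear partner RBPJ binds TGGGAA. These are the 250 bases before the start (RefSeq, GRCm38.p6, which is another build than the gene positions above), Cldn6 at chr17:23679115-23679364 and Cldn11 at chr3:31149670-31149919, both on the plus strand. Capitals mark the RBPJ core, TGGGAA or its reverse complement TTCCCA, and the E-box, CAGGTG or its reverse complement CACCTG. Snail and ZEB factors bind this E-box.
Cldn6: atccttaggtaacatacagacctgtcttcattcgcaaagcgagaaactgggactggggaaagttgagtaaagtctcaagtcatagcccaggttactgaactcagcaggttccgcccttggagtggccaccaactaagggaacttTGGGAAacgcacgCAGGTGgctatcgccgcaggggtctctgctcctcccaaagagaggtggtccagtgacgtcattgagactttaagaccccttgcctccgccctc
Cldn11: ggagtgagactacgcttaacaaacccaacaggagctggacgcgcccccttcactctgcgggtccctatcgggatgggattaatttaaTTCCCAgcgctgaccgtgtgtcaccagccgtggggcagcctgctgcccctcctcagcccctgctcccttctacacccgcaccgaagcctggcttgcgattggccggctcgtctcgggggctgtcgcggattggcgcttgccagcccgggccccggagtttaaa
The Cldn6 window held a core starting 106 bases before the start and an E-box 93 bases before it, which do not overlap. The Cldn11 window held a core on the other strand 163 bases before the start. Of all 32851 such windows 21.6% held the core and 17.2% the E-box. Cldn6 was called with age only and Cldn11 with DAPT only, and binding of RBPJ to either window was not tested. Neither window held the longer RBPJ form GTGGGAA (5.42% of windows) or the grainyhead motif AACCNGTT (1.79%), on either strand. Of the 10 genes, 5 were matched in the table (Cldn6, Cldn11, Cldn14, Ocln and Marveld2). Cldn14 and Marveld2 also held a core in at least 1 window, and Ocln held none in either of its windows.

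The other junction genes were followed as lists. Of all genes, 2.01% were called higher with age in DMSO and 3.04% in DAPT. Between P0 and P5 in DMSO GFP+ cells, 0 of 13 adherens junction partners rose and 1 fell, Ctnna2, the neuronal alpha-catenin, from 47.7 ± 2.14 to 9.04 ± 0.00764 CPM (log2 fold change -2.44, SE 0.21, edgeR adjusted p = 0.00058). None of 24 tight junction partners, 9 desmosome genes, 18 other cadherins or 12 other claudins tested passed in either direction. Of 4 gap junction genes 1 rose, Gjb6, the connexin 30 of supporting cells, from 69.9 ± 30.6 to 383 ± 152 CPM (log2 fold change 2.41, SE 0.36, edgeR adjusted p = 0.0054), and of 13 regulators of junction genes 1 rose, Grhl1, a grainyhead factor, from 7.07 ± 0.562 to 23.4 ± 2.95 CPM. In DAPT, 2 of 4 gap junction genes rose with age, Gjb6 and Gjb2, the connexin 26 gene (from 178 ± 51.9 to 691.7 ± 29.4 CPM), and 1 of 13 adherens junction partners rose, Pvrl4, and 1 fell, Pvrl1. Of 24 tight junction partners Cxadr rose and Pard3 fell, and single genes rose among 11 other claudins (Cldn8), 8 desmosome genes (Dsp) and 12 regulators (Epcam), while none of 16 other cadherins passed. Median log2 fold changes of the lists between the ages in DMSO ran from -0.27 for other claudins to 0.99 for gap junction genes, against -0.38 for the 10 genes and -0.02 for all genes.

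With DAPT at P0, 2 of 13 adherens junction partners rose and 1 fell, where 4.2% of all genes were called higher and 4.17% lower. Pvrl1, which encodes nectin-1, rose from 9.88 ± 3.45 to 66.7 ± 5.01 CPM (log2 fold change 2.71, SE 0.24, edgeR adjusted p = 6.5e-05), and Mllt4, the afadin gene whose product binds nectins, from 235 ± 18.6 to 569 ± 40.8 CPM (log2 fold change 1.24, SE 0.13, edgeR adjusted p = 0.00014). Pvrl4, the nectin-4 gene, fell from 13.5 ± 3.96 to 3.39 ± 0.0399 CPM. Of 24 tight junction partners 2 rose, Mpdz and Pard3, the latter a polarity gene at 69.0 ± 0.459 CPM in DMSO and 168 ± 5.41 CPM in DAPT, and 1 fell, Amotl1. Of 12 other claudins tested, Cldn1 fell, from 25.4 ± 2.67 to 1.32 ± 0.624 CPM (log2 fold change -4.30, SE 0.35, edgeR adjusted p = 4.0e-05). Of 18 other cadherins 2 fell, one of which, Cdh10, met the limit on level, and of 9 desmosome genes 1 fell, Dsc2. Of 4 gap junction genes 1 fell, and 1 of 12 regulators rose, Esrp2, a splicing regulator of epithelial cells, from 24.4 ± 0.664 to 57.0 ± 0.775 CPM. At P5 none of these lists held a gene that passed.

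Between the fractions at P0, 6 of 9 desmosome genes were higher in GFP+ cells and none lower, 8 of 24 tight junction partners were higher and 4 lower, and 6 of 13 adherens junction partners were higher and 1 lower. Of all genes 25.5% were called higher and 15.5% lower, so that the tight junction partners, at 33.3% and 16.7%, lay near the share of all genes. Without P0 DMSO GFP- replicate 2, a choice made after seeing the data, 8 of 9 desmosome genes, 8 of 24 tight junction partners and 7 of 13 adherens junction partners were called higher and 0, 4 and 1 lower, where 20.3% of all genes were called higher and 17.9% lower. Without either P0 DMSO GFP+ library none was called in either direction, in any list or over all genes. Marveld3, the third MARVEL gene, measured 101 ± 2.13 CPM at P0 in the GFP+ fraction and 4.26 ± 2.27 CPM in the GFP- fraction (log2 fold change 4.69, SE 0.41, edgeR adjusted p = 0.00089), and Marveld1 went the other way, at 2.44 ± 0.728 and 75.1 ± 8.47 CPM (log2 fold change -4.84, SE 0.29, edgeR adjusted p = 0.00048). Of 13 regulators 4 were higher and 5 lower. The epithelial genes Grhl2, Esrp1 and Esrp2 were higher in GFP+ cells by log2 fold changes of 3.36, 3.37 and 3.44, while Snai1, Twist1 and Zeb2, which encode repressors of epithelial genes, were lower and had log2 fold changes of -5.73, -5.59 and -2.68. Without P0 DMSO GFP- replicate 2 these 6 genes, Marveld1 and Marveld3 were called in the same direction.

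Over the 8 GFP+ libraries, the genes with the pattern most like each member were taken from 10608 genes whose mean in a GFP+ group reached 10 CPM, by Pearson r of log2(CPM + 1). The libraries share age, treatment and depth, so that high values are common, and r is given as a description. For Cdh1 these were Alox15, Rassf4 and Raver2 (r = 0.993, 0.993 and 0.992). For Cdh2 they were Nhlh1, Dlk2 and Fam125b (r = 0.992 for each), and for Cdh4 Gfra1, Cdkn1c and Hmgcll1 (r = 0.988, 0.986 and 0.986). For Cldn6 they were Astn1, Cct4 and Wasf1 (r = 0.994, 0.994 and 0.992), and for Cldn9 Zfp235, B230312A22Rik and Lad1 (r = 0.992, 0.978 and 0.972). Within the 10, Cldn6 and Cdh3 were closest (r = 0.983), Ocln and Marveld2 had r = 0.882, and Cldn6 and its neighbor Cldn9 had r = -0.475.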

How the data were processed

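The authors aligned paired-end reads to the mouse genome build mm9 (NCBIM37) with TopHat (version 1.4.0 in the submitters' processing notes) and deposited whole-number counts per Ensembl gene, 1 file per library, without pooling replicates. The notes also name HTSeq and DESeq 1.9.2, and the settings of the counting are not given in the sources used here. cDNA from small numbers of cells received an extra amplification, which can change levels as well as the spread between replicates. The paper describes it for the cultured samples without separating the fractions. The 5 closing lines of each file (58.45 to 67.38% of records in GFP+ and 16.99 to 24.34% in GFP- libraries) entered no test.

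From these counts, edgeR 4.0.16 in R 4.3.3 was used with filterByExpr (minimum count 10, minimum total 15), TMM normalisation and the quasi-likelihood F test on the groups compared, without a replicate block. P-values were adjusted over all genes tested. SE is the log2 fold change divided by the square root of F. CPM were scaled by TMM over 16 libraries and 24731 genes, and levels per length used exonic lengths of GENCODE M1, which is on the counts' build. Symbols covered 34391 of 36536 identifiers. DESeq2 1.42.0, no filter, other scaling, all 8 groups in the fit, a replicate block, an adjusted p limit of 0.05 and leaving out each library were the alternatives. The test was also run on simulated counts with a common spread for all genes, unlike these data, and no result here rests on that run. All 10 genes were named, as were, of each junction list in a comparison, up to 3 called genes per direction, ranked by size of change, whose mean reached 10 CPM in either group. The genes and lists were chosen with earlier results of these data known.

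With 2 libraries per group and no source that ties equal replicate numbers to an animal or day, the numbers were not taken as pairs.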

Additional observations from a re-analysis of the deposited data

Results flagged for a closer look

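Cdh3 had opposite signs in the 2 ages. In DMSO its log2 fold change of GFP+ against GFP- cells was 2.47 at P0, where both GFP+ libraries stood above both GFP- libraries, and -0.48 at P5, where both stood below. The difference between the ages was not tested, and the P5 value alone did not pass (edgeR adjusted p = 0.28). The P0 comparison holds the library labelled P0 DMSO GFP- replicate 2, which went against its label, and without it the P0 value was 2.34. With 2 libraries a group, no test for an outlying value was run within a group.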

How the results depend on the processing

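Of 950 values of the 10 genes under other settings, 52 changed sign, in 32 results, none of which had passed the test. With all 8 groups in 1 fit, 2 of the 10 passed with age in DMSO GFP+ cells and 1 with DAPT at P0, and 1 passed for the interaction with an adjusted p limit of 0.05, with no filter or with DESeq2. The cause was not tested. Marveld2 with age in DMSO turned to 0.053 without a filter, 0.018 with DESeq2 and 0.024 with all groups in GFP+ cells, and to 0.007 with DESeq2 and 0.028 with all groups in GFP- cells. Cldn11 with DAPT at P5 turned to 0.039 with the replicate block.

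Leaving out 1 library, whose lone partner is then assumed to vary like the other groups, gave 3 to 5 genes of the 10 with age in DMSO GFP+ cells, 0 to 6 in DAPT, 2 with DAPT at P0, 0 at P5, 0 to 1 for the interaction, 0 to 9 and 3 to 8 for the fractions at P0 and P5, and in GFP- cells 0 to 1 with age, 0 to 2 with DAPT at P0 and 0 at P5. Where a sign turned, the log2 fold changes ranged as follows. DAPT in P0 GFP- cells gave Cdh1 -0.13 to 0.61, Cldn14 -1.56 to 0.30, Cldn9 -0.024 to 0.50. DAPT in P5 GFP+ cells gave Cdh1 -0.24 to 0.25, Cdh2 -0.020 to 0.39, Cldn11 -1.95 to 2.25, Cldn14 -0.55 to 0.18, Marveld2 -0.27 to 0.28, Ocln -0.040 to 0.77. DAPT in P5 GFP- cells gave Cdh1 -0.061 to 0.61, Cdh2 -0.24 to 0.36, Cldn11 -0.049 to 0.098, Cldn14 -0.21 to 1.25, Cldn6 -0.25 to 0.84, Cldn9 -0.078 to 1.11, Marveld2 -0.065 to 0.86. Age in DMSO GFP+ cells gave Cdh2 -0.79 to 0.096, Cldn11 -0.39 to 3.11, Marveld2 -0.055 to 0.068. Age in DMSO GFP- cells gave Cdh2 -0.53 to 0.070, Cdh3 -0.019 to 0.16, Cdh4 -1.60 to 0.11, Cldn14 -0.35 to 1.53, Cldn6 -0.82 to 0.47, Cldn9 -0.41 to 0.47, Marveld2 -0.29 to 0.22, Ocln -0.47 to 0.27. The fractions at P0 gave Cdh4 -0.16 to 1.54. Age in DAPT GFP+ cells gave Cldn11 -2.13 to 0.13. DAPT in P0 GFP+ cells gave Cldn14 -0.038 to 0.73. The interaction gave Cldn9 -0.37 to 0.15, Ocln -0.74 to 0.058.

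Over all genes, calls with age in DMSO GFP+ cells were 691, and 2003 with the p limit of 0.05, 1961 without a filter, 1659 with DESeq2 and 1050 with the replicate block. In DAPT they were 1085, and 2242, 2606, 2155 and 1761. With DAPT at P0 they were 1733, 3761 with the p limit and 1089 with all groups, at P5 0, 108 without a filter and 58 with DESeq2, and for the interaction 245, 758, 906 and 865. The replicate block raised the fraction calls from 7 to 8 of the 10 at P0 (Cdh2 added) and from 6 to 7 at P5 (Cldn11 added), and changed no other number of the 10. Equal numbers correlated at -0.21 to 0.69 over the comparisons. The highest values were those of DAPT in GFP- cells, 0.365 at P0 and 0.691 at P5, where the replicate block also called 0 of the 10. Crossed pairs with DAPT at P5 in GFP+ cells, chosen after seeing the data, gave 0 genes. Depth limits Cldn11 most, at 14 to 147 counts per GFP+ library.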
